A study of Homo sapiens with 16 samples.

Results

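The collagen genes were taken as every gene whose symbol in the deposited count table was COL, a type number, A and a chain number, which gave 44 of 57500 genes. They comprised 11 fibrillar collagen genes, 6 genes of basement membrane collagen IV and 27 other collagen genes. The 16 RNA-seq libraries made 4 groups of 4 and came from HEK293T, a human kidney line of embryonic origin with the SV40 large T antigen. All cells carried a lentivector for histone H2A or for H2A(E92K), a form with a glutamate of the nucleosome surface changed to lysine. The first group was H2A cells with DMSO, the solvent, and the second was H2A(E92K) cells with DMSO. The third was H2A cells with 1 µM JQ1 for 3 h, a compound that displaces BET proteins from acetylated histones. The fourth was H2A cells with 2.5 µM pinometostat for 24 h, an inhibitor of the histone methyltransferase DOT1L. No time with DMSO is given, and dose and time differ between the compounds, so a comparison of the drugs is between groups of libraries. The vector cells are lines that also keep their own H2A genes, and the labels name no separate cultures or clones. The p-values below therefore rest on how these samples vary, and that variation may be technical.

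Collagens are secreted proteins whose chains wind around each other into a helix, and each gene encodes a kind of chain. Fibrillar collagens (types such as I, II, III and V) assemble into the fibres of tendon, bone, cartilage and skin. Collagen IV forms the sheet-like network of basement membranes, and type VI forms beaded filaments in the matrix next to cells. Chains are hydroxylated and folded in the endoplasmic reticulum, trimmed on secretion and cross-linked outside the cell, and the kidney uses several collagen IV chains in its filtration barrier.

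Depth ran from 17779692 to 27599686 counts per library. The mitochondrial share of counts was 16.5% in JQ1 replicate 1, while the rest of the JQ1 group lay at 3.04 to 3.69%. In the E92K group it was 7.45% in replicate 4 and 3.77 to 4.95% in the rest. Counts of members past the threshold are given with and without these libraries. Fibroblast markers summed to 176 to 193 CPM (counts scaled to library depth) with DMSO, 156 to 165 CPM in E92K cells, 178 to 197 CPM with JQ1 and 123 to 155 CPM with pinometostat, mostly from FBLN1, a matrix protein gene. Blood cell markers summed to at most 5.44 CPM in any library, and HBB, the beta-globin gene, had no read in any of them. HEK293T identity genes summed to 698 to 862 CPM with DMSO, 668 to 925 CPM in E92K cells, 837 to 1473 CPM with JQ1 and 505 to 638 CPM with pinometostat. In bulk RNA, fewer cells with a transcript and less of it per cell cannot be told apart.

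Of the 44 collagen genes, 37 passed the filter on low counts, with all 11 fibrillar, all 6 basement membrane and 20 of 27 other members. Levels between genes are given in TPM, which also divide by gene length. In H2A cells with DMSO, 12 members reached 10 TPM, 14 lay from 1 to below 10 TPM and 18 lay below 1 TPM. COL6A1, the alpha-1 chain of beaded-filament collagen VI, was highest at 111 ± 19.98 TPM (SD, n = 4). COL1A1, the main chain of the fibres of bone and skin, followed at 62.5 ± 9.46 TPM, and COL6A2, the partner of COL6A1, stood at 59.1 ± 8.06 TPM. These last values differed by less than the spread between libraries. COL18A1, a heparan sulfate proteoglycan of basement membranes whose C-terminal piece is endostatin, had 37.2 ± 6.80 TPM. COL4A2 had 28.4 ± 5.69 TPM, COL2A1, the collagen of cartilage, 20.3 ± 3.76 TPM, and COL1A2, the second chain of type I, 18.8 ± 2.36 TPM. The last pair lay within a standard deviation of each other.

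Below these, COL26A1 (14.5 ± 0.54 TPM), COL3A1 (13.9 ± 1.25 TPM), COL4A1 (12.1 ± 2.92 TPM), COL4A5 (10.9 ± 1.0 TPM) and COL5A1 (10.1 ± 1.94 TPM) formed a run in which neighbours did not differ beyond their spread. The collagen IV genes lay at separate levels. COL4A1, COL4A2, COL4A5 and COL4A6 lay between 8.73 and 28.4 TPM, while COL4A3 and COL4A4, chains of the mature glomerular membrane, had 0.099 and 0.48 TPM. COL6A3, the third classical chain of type VI, was at 2.08 TPM, a ratio to COL6A2 of 0.034 ± 0.0088. The 7 members that failed the filter were COL10A1, COL17A1, COL20A1, COL22A1, COL28A1, COL6A5 and COL6A6. Of these, COL6A5 and COL6A6 reached 11 reads in a library and the other 5 never reached 10.

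**Figure D1:**
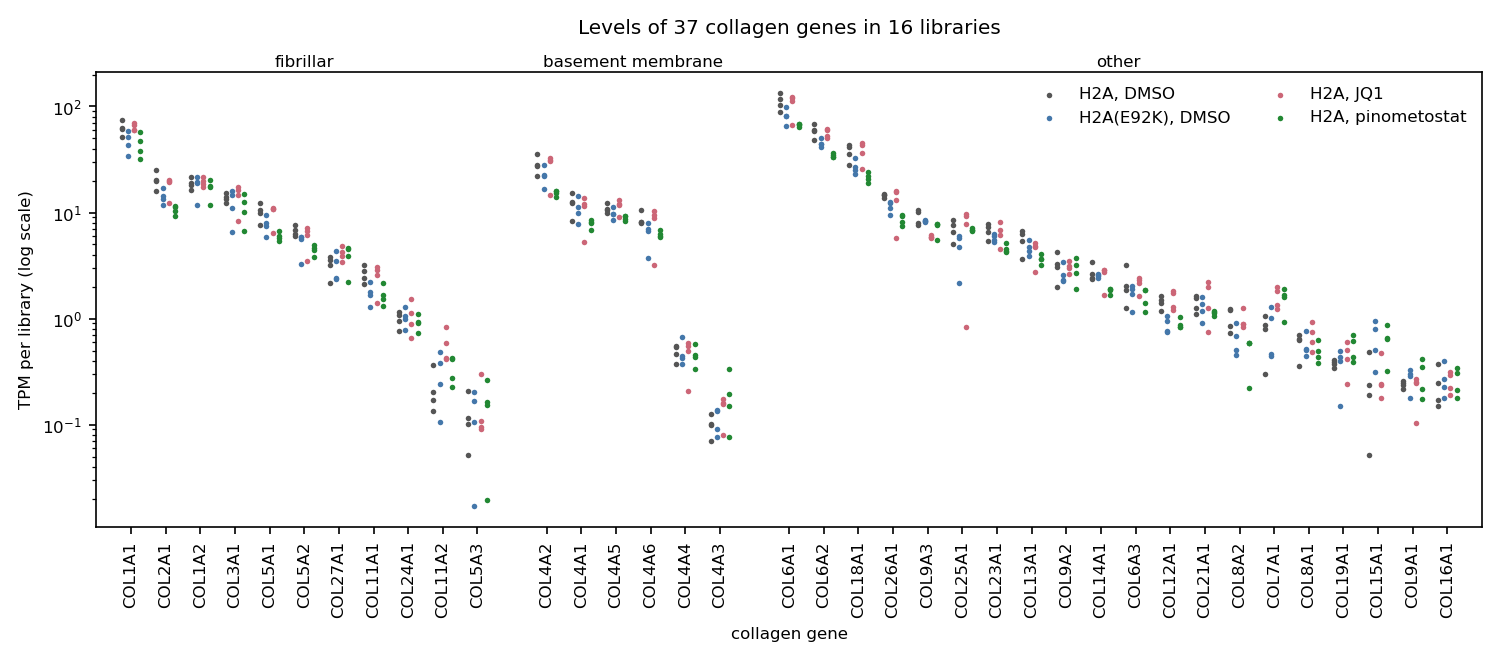
Each point is the TPM of a collagen gene in 1 library (log axis), for the 37 members that passed the filter, ordered by class and by level in H2A cells with DMSO; colours are the 4 groups. COL6A1 tops the other collagens at 111 TPM, COL1A1 the fibrillar ones at 62.5 TPM, and COL4A3 and COL4A4 lie far below the rest of collagen IV.

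Collagens together took 0.091 to 0.126% of the counts of each DMSO library, 0.079 to 0.099% in E92K cells, 0.108 to 0.117% with JQ1 and 0.072 to 0.084% with pinometostat. Every pinometostat library was below every DMSO library, and the E92K and JQ1 ranges overlapped that of DMSO. By class, the basement membrane share was 0.0141 to 0.0205% with DMSO and 0.0110 to 0.0120% with pinometostat, without overlap. The share of the other collagens was 0.0407 to 0.0583% with DMSO and 0.0336 to 0.0345% with pinometostat, also apart. The fibrillar share was 0.0359 to 0.0473% with DMSO and 0.0256 to 0.0388% with pinometostat, and these ranges overlapped. Such sums mostly follow the most abundant genes of a class, so they do not rank the classes. Among fibrillar genes, COL1A1 had 65634 reads over the 16 libraries, COL1A2 24978 and COL2A1 12779. No matching share over all genes was computed for these sums.

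With pinometostat, 9 of the 37 tested collagen genes were lower than with DMSO and none was higher, by the quasi-likelihood test of edgeR (adjusted p below 0.05, Benjamini-Hochberg, across the 17306 genes tested). Over all tested genes, 4.58% were lower and 3.62% higher. At an unadjusted p below 0.05, 15 members were lower and 4 higher, among 12.5 and 13.1% of all tested genes. DESeq2 called 14 lower (9.70% of all genes it tested) and 2 higher (5.69%), and limma-voom called 8 lower (4.96%) and none higher (4.36%). The median log2 fold change of the 37 members was −0.20, where that of all tested genes was 0.03. The lower members came from each class: COL2A1, COL5A1 and COL5A2 of 11 fibrillar genes, COL4A2 of 6 basement membrane genes, and COL6A1, COL6A2, COL14A1, COL18A1 and COL26A1 of 20 others. Class medians were −0.19, −0.25 and −0.23 in that order.

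Among fibrillar members, COL2A1 (ENSG00000139219, chromosome 12, 47972965 to 48004486) gave 48.1, 40.1, 41.8 and 34.0 CPM with DMSO and 19.9, 22.9, 27.0 and 25.8 CPM with pinometostat. Every treated library lay below every control library. It fell by 0.78 ± 0.12 (SE) on the log2 scale, to 0.58 of the control level (adjusted p = 0.0043). COL5A1 (ENSG00000130635, chromosome 9, 134641774 to 134844843), a chain of the minor collagen that sets fibril width, gave 40.3, 35.1, 35.5 and 27.8 CPM with DMSO and 21.9, 24.9, 21.8 and 21.9 CPM with pinometostat. The groups were again apart, and it fell by 0.62 ± 0.11 (adjusted p = 0.0066). Its partner chain COL5A2 (ENSG00000204262, chromosome 2, 189031896 to 189179879) gave 15.96, 14.5, 13.7 and 14.5 CPM with DMSO and 11.5, 11.0, 11.4 and 9.12 CPM with pinometostat. The ranges did not meet, and it fell by 0.45 ± 0.13 (adjusted p = 0.039), a call that ended when any single library of the comparison was left out (adjusted p from 0.052 to 0.112).

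The fibre-forming genes did not move alike. COL1A1 gave 214, 184, 191 and 165 CPM with DMSO and 183, 154, 134 and 107 CPM with pinometostat, ranges that overlap (log2 fold change −0.39 ± 0.19, adjusted p = 0.21). COL1A2 gave 71.1, 59.8, 67.6 and 58.9 CPM with DMSO and 74.4, 65.6, 69.9 and 44.8 CPM with pinometostat (log2 fold change −0.02). The lowest value of COL1A2 was pinometostat replicate 4 and the other treated libraries lay among or above the controls. COL3A1, which forms mixed fibrils with type I in soft tissue, had a log2 fold change of −0.19 with overlapping groups. COL11A1, which nucleates cartilage fibrils, had −0.52 ± 0.17 and an adjusted p of 0.060.

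In collagen IV, COL4A2 (ENSG00000134871, chromosome 13, 110305812 to 110513027) gave 91.1, 72.9, 76.5 and 62.4 CPM with DMSO and 40.3, 46.7, 48.7 and 46.5 CPM with pinometostat. The groups were well apart, and COL4A2 fell by 0.73 ± 0.12 (adjusted p = 0.0045). COL4A1, its partner in the common collagen IV protomer, gave 36.8, 30.4, 32.1 and 22.1 CPM with DMSO and 18.4, 22.4, 25.4 and 21.9 CPM with pinometostat. Those groups overlapped through DMSO replicate 4, and the change of −0.46 ± 0.15 did not pass the test (adjusted p = 0.071). COL4A5 and COL4A6, chains of a second network, had log2 fold changes of −0.15 and −0.34 and did not pass.

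Of the other collagens, COL6A1 (ENSG00000142156, chromosome 21, 45981737 to 46005050) gave 211, 187, 177 and 153 CPM with DMSO and 116, 123, 124 and 122 CPM with pinometostat. COL6A2 (ENSG00000142173, chromosome 21, 46098097 to 46132849) gave 108, 96.5, 102 and 85.7 CPM with DMSO and 63.8, 60.2, 68.5 and 61.3 CPM with pinometostat. COL18A1 (ENSG00000182871, chromosome 21, 45405137 to 45513720) gave 109, 104, 97.7 and 78.6 CPM with DMSO and 52.6, 58.8, 67.9 and 69.0 CPM with pinometostat. None of these 3 genes had overlapping groups. They fell by 0.58 ± 0.10 (adjusted p = 0.0056), 0.63 ± 0.14 (adjusted p = 0.017) and 0.65 ± 0.12 (adjusted p = 0.0081) in that order. The call of COL6A2 ended without DMSO replicate 1 (adjusted p = 0.067) or without pinometostat replicate 1 (adjusted p = 0.051). All 3 genes lie on chromosome 21, with 468016 bases between COL18A1 and COL6A1 and 93046 between COL6A1 and COL6A2. Of the exonic bases of COL18A1, 1401 (16.4%) are shared with SLC19A1, a folate carrier gene on the opposite strand with 57.0 CPM, and without a stated strand setting reads there cannot be told apart.

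COL26A1 (ENSG00000160963, chromosome 7, 101362820 to 101559024), a short secreted collagen, gave 13.6, 13.7, 13.8 and 15.4 CPM with DMSO and 9.67, 7.81, 10.9 and 8.62 CPM with pinometostat. The groups were apart and it fell by 0.61 ± 0.14 (adjusted p = 0.015). Its call ended without pinometostat replicate 2 (adjusted p = 0.0505) and when a trend with transcript GC content was removed (−0.43, adjusted p = 0.17). COL14A1 (ENSG00000187955), which sits on the surface of fibrils, gave 8.56, 6.77, 6.71 and 6.61 CPM with DMSO and 5.37, 5.34, 6.001 and 4.92 CPM with pinometostat. It was the least firm of the 9, at −0.41 ± 0.12 and an adjusted p of 0.049. Leaving out any library of the comparison other than DMSO replicate 4 ended that call (adjusted p from 0.061 to 0.174). Of the 9 calls with pinometostat, only those of COL2A1, COL6A2 and COL18A1 held on log2(TPM + 1), where 2.66% of all tested genes were lower. On log2(TPM + 0.1) only that of COL6A2 held (0.0925% of all tested genes lower).

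Just short of the threshold, and so not called, lay COL12A1 (−0.54 ± 0.17, adjusted p = 0.053), a fibril-associated collagen, COL23A1 (−0.42 ± 0.13, adjusted p = 0.060) and COL13A1 (−0.44 ± 0.14, adjusted p = 0.060), both transmembrane collagens. When the fit left out JQ1 replicate 1 and E92K replicate 4, which are in neither group of this comparison but share its estimate of spread, 17 members were lower. The 9 above were all among them, and the 8 added were COL1A1, COL4A1, COL4A6, COL8A2, COL11A1, COL12A1, COL13A1 and COL23A1. In that fit 17.9% of all tested genes were lower. The same fit called 2 members higher, COL7A1 (1.102 on the log2 scale, adjusted p = 0.011) and COL15A1 (1.48, adjusted p = 0.0093), among 10.5% of all tested genes. COL7A1, the anchoring fibril collagen that ties epithelium to stroma, gave 2.85, 3.47, 2.81 and 1.09 CPM with DMSO and 6.09, 7.003, 3.70 and 5.99 CPM with pinometostat, which did not overlap. COL15A1, a relative of COL18A1, gave 0.94, 0.47, 0.41 and 0.11 CPM with DMSO and 1.39, 1.45, 2.10 and 0.71 CPM with pinometostat, which overlapped. Counting groups alone, 14 of 37 members had every pinometostat library below every DMSO library (13.5% of all tested genes) and 2 had every library above (12.7%).

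**Figure D2:**
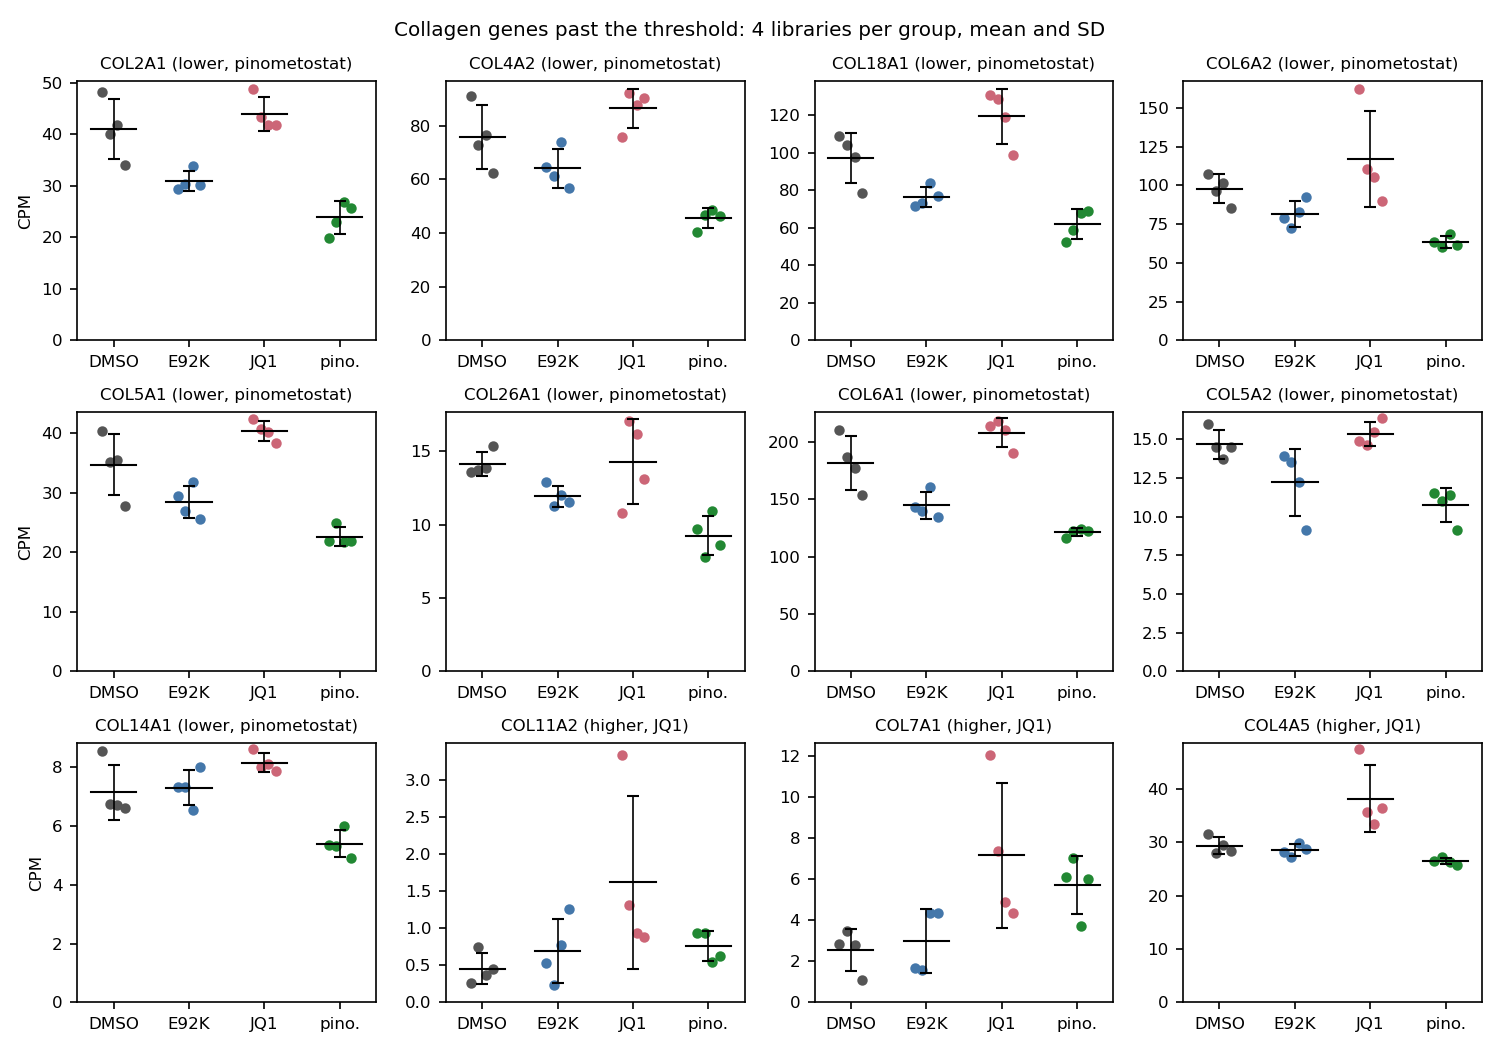
CPM in each library (points) with the group mean and SD (bars, n = 4) for the 9 members lower with pinometostat and the 3 higher with JQ1; each panel has its own axis from 0, "E92K" is H2A(E92K) with DMSO and "pino." is pinometostat. In the first 9 panels every pinometostat library lies below every DMSO library, and in the last 3 the highest point of the JQ1 group is replicate 1.

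With JQ1, 3 collagen genes were higher than with DMSO and none was lower by the same test. This comparison, the one above and that of E92K cells use the same 4 DMSO libraries of H2A cells. Over all tested genes, 7.16% were higher and 10.4% lower. These 3 of 37 members are a share of 8.11%, close to that of all tested genes. At an unadjusted p below 0.05, 6 members were higher and none lower, among 15.7 and 15.4% of all tested genes. DESeq2 called 4 higher (9.73% of all genes it tested) and limma-voom 3 (6.54%), neither calling any lower (11.6 and 10.3%). Without JQ1 replicate 1 and E92K replicate 4, 3 members were higher (9.49% of all tested genes) and 1 was lower (14.4%). They were COL7A1, COL11A2 and COL25A1, and the lower one was COL9A3. The median log2 fold change was 0.28 for the members and 0.04 for all tested genes, with 35 of 37 above 0. That median depends on the scaling: it was 0.08 with library size alone, where the median of all genes was −0.14, and −0.01 on log2(TPM + 1), where that of all genes was −0.21. Class medians were 0.34 for fibrillar, 0.18 for basement membrane and 0.27 for other members.

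COL7A1 (ENSG00000114270, chromosome 3, 48564073 to 48595267) gave 12.0, 7.37, 4.87 and 4.34 CPM with JQ1, all above its DMSO libraries. It rose by 1.46 ± 0.39 on the log2 scale, to 2.76 times the control level (adjusted p = 0.015), and by 1.07 without JQ1 replicate 1 and E92K replicate 4. On log2(TPM + 1) it was not called (adjusted p = 0.054). COL4A5 (ENSG00000188153, chromosome X, 108439844 to 108697545), mutated in Alport syndrome, gave 31.6, 27.9, 29.6 and 28.5 CPM with DMSO and 47.4, 35.6, 33.3 and 36.4 CPM with JQ1. The groups did not overlap, and it rose by 0.38 ± 0.10 (adjusted p = 0.018). That call ended in 9 of 23 other settings. The value was near 0 on log2(TPM + 1) and log2(TPM + 0.1) (0.064 and 0.069, adjusted p = 0.76 and 0.77) and 0.18 with library size alone (adjusted p = 0.26). Without JQ1 replicate 1 it was 0.24 (adjusted p = 0.073), and leaving out E92K replicate 4 as well gave 0.23 (adjusted p = 0.054). The call also ended without DMSO replicate 2 (adjusted p = 0.054), with the 8 libraries compared alone (adjusted p = 0.12), with no filter (adjusted p = 0.19) and with upper quartile scaling (adjusted p = 0.056). COL11A2 (ENSG00000204248, chromosome 6, 33162681 to 33192499), a chain of cartilage collagen XI, gave 0.26, 0.74, 0.37 and 0.45 CPM with DMSO and 3.34, 1.32, 0.93 and 0.89 CPM with JQ1. It rose by 1.76 ± 0.49 (adjusted p = 0.019). This call rests on few reads, 7, 22, 9 and 12 with DMSO and 46, 27, 18 and 19 with JQ1. Without JQ1 replicate 1 the value was 1.15 (adjusted p = 0.068), and leaving out E92K replicate 4 as well gave 1.14 (adjusted p = 0.036). Without DMSO replicate 1 or 3 the call also ended (adjusted p = 0.059 and 0.055), as it did on log2(TPM + 1) (0.35, adjusted p = 0.069).

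In CPM, JQ1 replicate 1, with its high mitochondrial share, was the highest JQ1 library for all 3 of these genes. It also stood above its group for COL27A1 (40.1 CPM against 15.3 to 19.8 CPM), COL1A1 (351 against 187 to 221 CPM) and COL6A2 (162 against 89.96 to 111 CPM). It stood below for COL25A1 (3.34 against 17.3 to 20.4 CPM) and COL4A6 (17.8 against 27.8 to 31.1 CPM). The order depends on the scaling for some of these genes. In TPM this library was the lowest JQ1 library for COL4A5 (9.11 against 11.7 to 13.2), COL1A1 (60.04 against 60.27 to 69.1) and COL6A2 (50.5 against 52.8 to 61.2). For COL7A1 it lay below replicate 2 (1.82 and 1.98 TPM). It remained the highest for COL11A2 and COL27A1 and the lowest for COL25A1 and COL4A6. COL9A3, a fibril-associated chain of cartilage, gave 17.0, 9.42, 9.58 and 9.05 CPM with JQ1 and 14.9, 14.6, 12.3 and 12.1 CPM with DMSO. The 3 JQ1 libraries other than replicate 1 all lay below the controls. The log2 fold change of COL9A3 was −0.27 ± 0.17 with all libraries (adjusted p = 0.32) and −0.55 ± 0.13 without JQ1 replicate 1 (adjusted p = 0.0045). COL25A1, a transmembrane collagen found in amyloid plaques, had 0.13 ± 0.35 with all libraries (adjusted p = 0.84) and 0.42 ± 0.13 without JQ1 replicate 1 and E92K replicate 4 (adjusted p = 0.025). Groups did not overlap, with JQ1 higher, for 5 members (8.26% of all tested genes) and, with JQ1 lower, for none (12.2%).

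**Figure D3:**
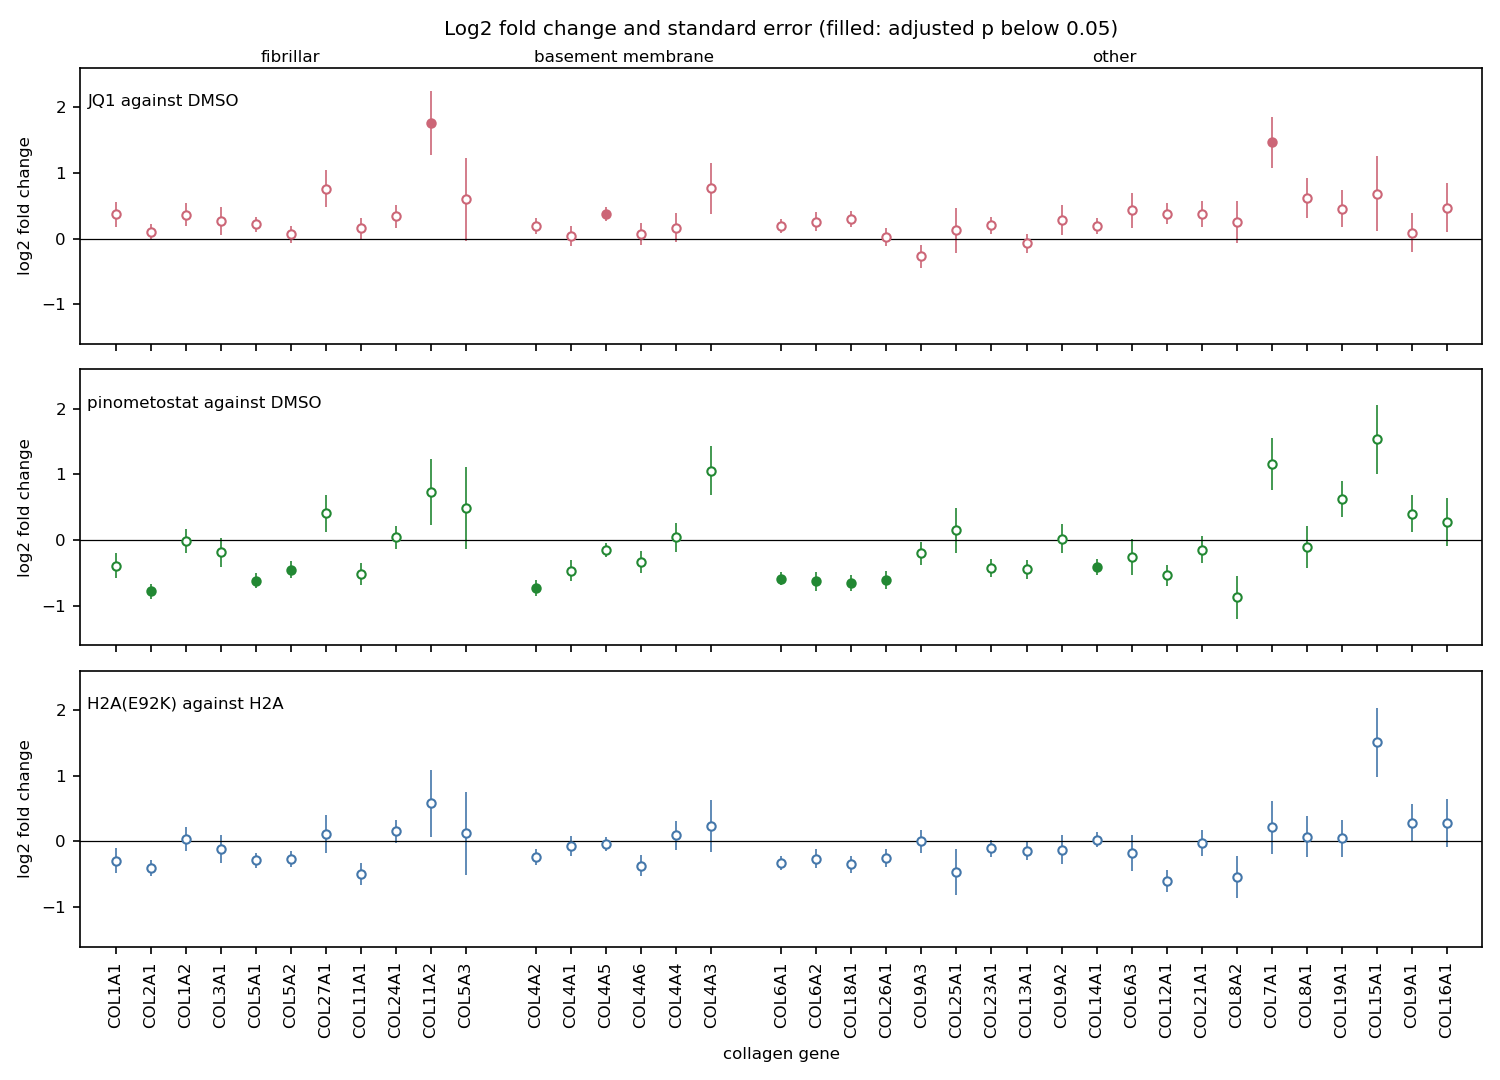
Log2 fold change against H2A cells with DMSO for the 37 tested members, with standard errors as bars; rows are JQ1, pinometostat and H2A(E92K), and filled points passed an adjusted p of 0.05 in edgeR. The JQ1 row has 35 of 37 points above 0, a side that depends on the scaling, and the pinometostat row has 24 of 37 below 0 with all 9 filled points among them.

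H2A(E92K) cells against H2A cells, both with DMSO, gave no collagen gene past the threshold in edgeR (0.0% of all tested genes higher and 0.0% lower). The smallest adjusted p of a member was 0.66. At an unadjusted p below 0.05, 7 members were lower and 1 higher, among 4.30 and 3.18% of all tested genes. DESeq2 called no member (0.00579% of all genes it tested were higher and 0.0174% lower), nor did limma-voom (0 and 0%). Without JQ1 replicate 1 and E92K replicate 4, edgeR called none either (0.00578 and 0.0173%). The median log2 fold change was −0.10 for the members and 0.00 for all tested genes. COL12A1 had the smallest unadjusted p, 0.0020, with 5.97, 5.59, 5.65 and 4.84 CPM in H2A cells and 3.92, 3.02, 3.98 and 3.67 CPM in E92K cells. COL2A1 gave 29.5, 30.4, 33.9 and 30.2 CPM in E92K cells, and COL26A1 gave 12.9, 11.2, 12.0 and 11.5 CPM. For these 3 genes every E92K library was below every H2A library (3.18% of all tested genes), and no member had every library above (1.99%). With weights for library quality, chosen after seeing the data, 6 members were lower and 1 higher, among 3.59 and 2.75% of all tested genes.

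Set directly against each other, 16 members were higher in the JQ1 libraries than in the pinometostat libraries and none was lower by edgeR's quasi-likelihood test with Benjamini-Hochberg adjustment. Of all tested genes, 16.8% were higher and 17.4% lower. The 16 were 5 of 11 fibrillar, 3 of 6 basement membrane and 8 of 20 other members. At an unadjusted p below 0.05, 24 members were higher and none lower, among 21.4 and 22.3% of all tested genes. DESeq2 called 20 higher (19.8% of all genes it tested) and limma-voom 16 (15.9%), and neither called a member lower (17.3 and 17.7%). Without JQ1 replicate 1 and E92K replicate 4, 20 members were higher and 2 lower, among 23.7 and 21.8% of all tested genes. The 4 added above were COL3A1, COL4A6, COL13A1 and COL21A1, and the 2 lower were COL15A1 (−1.53, adjusted p = 0.010) and COL9A3 (−0.31, adjusted p = 0.049). Groups did not overlap for 17 members with JQ1 higher (15.3% of all tested genes) and for none with JQ1 lower (17.9%). The median difference was 0.51 on the log2 scale for the members and −0.01 for all tested genes. The 5 members with the smallest adjusted p were COL4A2 (0.93 ± 0.12, adjusted p = 2.2e-05), COL6A1 (0.78 ± 0.10, 2.3e-05), COL18A1 (0.94 ± 0.13, 2.5e-05), COL5A1 (0.84 ± 0.11, 2.8e-05) and COL2A1 (0.88 ± 0.12, 3.0e-05). All 5 were among the 9 lower with pinometostat than with DMSO, and both comparisons use the same pinometostat libraries. The largest difference of a called member was that of COL8A2, a short-chain network collagen (1.13 ± 0.34, adjusted p = 0.015), at means of 1.75 and 0.79 CPM. COL1A1, which differed from DMSO past the threshold with neither compound, differed between them by 0.76 ± 0.19 (adjusted p = 0.0052). COL7A1, with means of 7.15 CPM with JQ1, 5.69 CPM with pinometostat and 2.55 CPM with DMSO, did not pass here (0.31 ± 0.38, adjusted p = 0.56).

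Against E92K cells, 11 members were higher with JQ1 and none was lower (10.9 and 11.9% of all tested genes), led by COL12A1 (0.98 ± 0.17, adjusted p = 0.00039) and COL18A1 (0.64 ± 0.12, adjusted p = 0.0012). Every JQ1 library was above every E92K library for 11 members (8.94% of all tested genes), and for none was it below (11.2%). At an unadjusted p below 0.05, 18 members were higher and none lower, among 17.8 and 16.6% of all tested genes, and DESeq2 and limma-voom called none lower (12.9 and 11.8%). In the fit without JQ1 replicate 1 and E92K replicate 4, 13 members were higher and 2 lower, among 15.5 and 16.4%. Between pinometostat and E92K no member passed in edgeR (0.185% of all tested genes higher, 0.168% lower). The smallest adjusted p was 0.068, for COL4A2 at −0.49 ± 0.12. At an unadjusted p below 0.05, 11 members were lower and 2 higher with pinometostat, among 8.96 and 8.42% of all tested genes. DESeq2 called 3 lower (3.73% of all genes it tested) and limma-voom none (0.248%). Every pinometostat library was below every E92K library for 11 members (7.92% of all tested genes) and above for 1 (6.56%). Without JQ1 replicate 1 and E92K replicate 4, 8 members were lower and 1 higher with pinometostat than in E92K cells, among 6.86 and 3.28% of all tested genes.

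Chains that join in a protein were also compared as ratios of TPM in the same library, as a description without a test or a share over all genes. The ratio of COL1A1 to COL1A2 was 3.42, 3.49, 3.21 and 3.19 in H2A cells with DMSO and 3.46, 3.36, 3.22 and 3.27 with JQ1. It was 2.73, 2.66, 2.31 and 2.90 in E92K cells and 2.79, 2.66, 2.17 and 2.70 with pinometostat. The JQ1 range lay within the DMSO range, and every E92K and every pinometostat library lay below both. The ratio of COL4A2 to COL4A1 was 2.33, 2.26, 2.24 and 2.65 with DMSO, 2.77, 2.65, 2.66 and 2.37 with JQ1, 2.26, 1.96, 1.98 and 2.15 in E92K cells and 2.05, 1.96, 1.81 and 2.00 with pinometostat. Only the pinometostat group lay wholly below DMSO here. COL4A1 and COL4A2 are transcribed away from each other, and their annotated spans overlap by 1338 bases. The ratio of COL6A1 to COL6A2 overlapped among the groups, at 1.87 ± 0.11 with DMSO, 1.80 ± 0.23 in E92K cells, 1.87 ± 0.36 with JQ1 and 1.93 ± 0.12 with pinometostat (SD, n = 4). JQ1 replicate 1 was the low library there at 1.33, and it was the high library for COL4A5 over COL4A6 at 2.84 against 1.14 to 1.38 in the rest of its group.

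**Figure D4:**
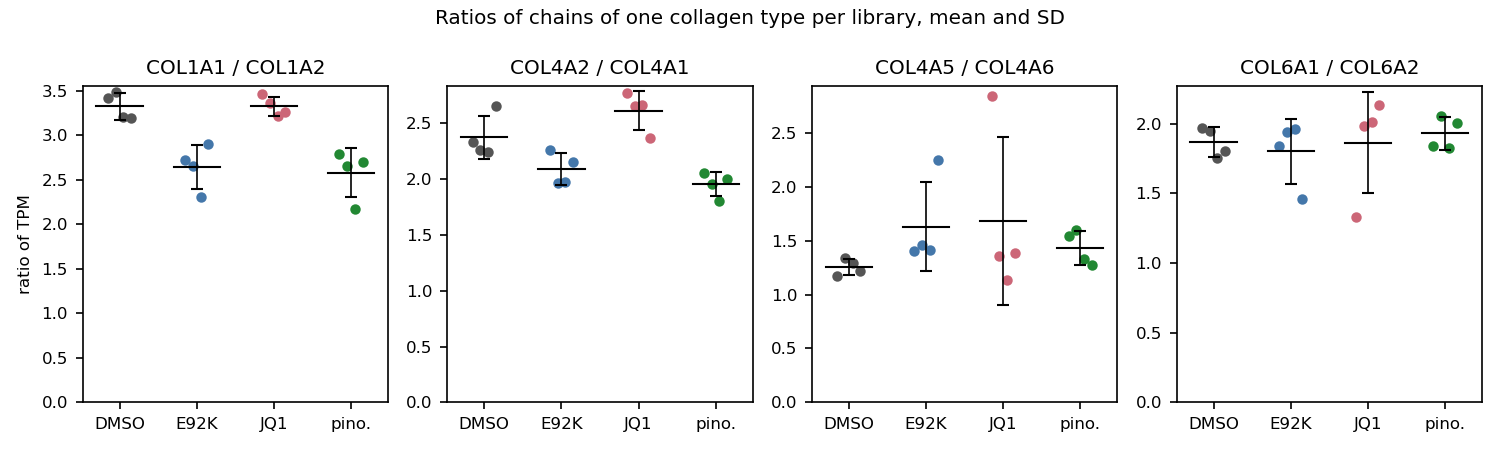
Ratio of TPM between chains that assemble together, per library (points) with mean and SD (n = 4), on axes from 0. For COL1A1 over COL1A2 the E92K and pinometostat libraries (2.17 to 2.90) lie below those with DMSO and JQ1 (3.19 to 3.49); for COL6A1 over COL6A2 the groups overlap.

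Sequences just before the gene start are shown for members called in different comparisons, not for opposite changes with the same compound. Each is 150 bases of GRCh38.p14 from the RefSeq promoter table, 5′ to 3′ on the gene's strand, ending before both the start given by RefSeq and the gene start in the deposited files. These starts differ: that of RefSeq lies 6 bases upstream of the deposited one for COL4A5 and 62 for COL7A1, and downstream for the other 3 genes. Capitals mark a GC box (GGGCGG, or CCGCCC on the other strand), a CCAAT box (CCAAT or ATTGG) and a TATA box (TATAAA or TTTATA). No capitals overlap between motifs. The first 3 genes fell with pinometostat and the last 2 rose with JQ1, so direction and compound cannot be told apart here.
COL5A1, chr9:134641624-134641773, plus strand: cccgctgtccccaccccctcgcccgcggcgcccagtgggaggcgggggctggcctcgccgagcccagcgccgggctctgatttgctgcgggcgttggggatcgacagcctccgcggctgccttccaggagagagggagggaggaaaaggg
COL6A2, chr21:46097947-46098096, plus strand: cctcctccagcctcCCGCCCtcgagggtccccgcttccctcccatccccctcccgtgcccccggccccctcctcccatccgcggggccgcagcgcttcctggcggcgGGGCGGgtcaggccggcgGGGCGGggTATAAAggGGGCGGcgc
COL26A1, chr7:101362670-101362819, plus strand: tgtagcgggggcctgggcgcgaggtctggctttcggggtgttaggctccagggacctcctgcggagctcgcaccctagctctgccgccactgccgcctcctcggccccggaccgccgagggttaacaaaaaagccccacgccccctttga
COL4A5, chrX:108439688-108439837, plus strand: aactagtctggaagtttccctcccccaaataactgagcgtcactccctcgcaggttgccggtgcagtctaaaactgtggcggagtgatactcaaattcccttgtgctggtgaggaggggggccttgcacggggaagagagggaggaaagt
COL7A1, chr3:48595330-48595479, minus strand: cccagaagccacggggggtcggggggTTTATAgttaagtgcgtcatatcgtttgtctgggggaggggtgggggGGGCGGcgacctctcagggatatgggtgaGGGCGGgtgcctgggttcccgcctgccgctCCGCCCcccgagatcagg
COL6A2 holds 4 GC boxes and a TATA box, and COL7A1 holds 3 GC boxes and a TATA box. The windows of COL5A1, COL26A1 and COL4A5 hold none of these motifs, so neither set of genes has a single arrangement here. Of 35116 promoters in the table, 36.8% hold a GC box, 23.5% a CCAAT box and 6.71% a TATA box in the last 150 bases. Over 250 bases the shares were 42.6%, 32.0% and 10.7%. Of the 32 members with an entry, 21 held a GC box, 11 a CCAAT box and 7 a TATA box at some listed start, where genes with several starts have more chances.

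Collagen transcripts were long and rich in G and C. Their median exonic length was 8281 bases against 4342 for all tested genes, and their median transcript GC content was 55.4% against 48.8%. The 9 members that fell with pinometostat had a median GC content of 62.3% and the other 28 a median of 53.9%. A trend with GC content was fitted in each library to the deviations of genes from their mean over all libraries. Removing that trend before the edgeR test left 8 members lower and 1 higher (COL7A1, 1.36, adjusted p = 0.026), among 2.72 and 1.61% of all tested genes. Removing a trend with length left 10 lower, among 6.32%.

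Genes that make, secrete, bind and degrade collagen were read in the same fits, with edgeR's adjusted p over all genes. With pinometostat, 4.58% of all tested genes were lower and 3.62% higher, the shares against which each list is read. Of 19 folding and modification genes, 4 were lower and none higher. They were SERPINH1, the collagen chaperone HSP47 (−0.33, adjusted p = 0.023), PLOD1 (−0.39, 0.024) and PLOD3 (−0.42, 0.024), which hydroxylate lysine, and P4HB, the beta subunit of prolyl 4-hydroxylase (−0.34, 0.035). Of 13 secretion and processing genes, FURIN, a proprotein convertase (−0.53, 0.011), and ADAMTS2, which trims the N-propeptide (−0.36, 0.041), were lower. LOXL2 was the only cross-linking gene of 6 past the threshold (−0.63, 0.016), and MRC2, which takes up collagen for degradation, the only receptor of 8 (−0.57, 0.0082). Of 9 degradation genes, MMP2, a gelatinase (−0.51, 0.020), and its inhibitor TIMP2 (−0.48, 0.017) were lower. Of 16 basement membrane partners, the laminin chains LAMB1 (−0.47, 0.0080), LAMB2 (−0.48, 0.013) and LAMC3 (−0.48, 0.033) and the proteoglycan AGRN (−0.55, 0.038) were lower. Of 16 regulators, TGFB1 alone was lower (−0.41, 0.031). No gene of these 7 lists was higher with pinometostat. Of these 15 calls, 12 ended when some single library of the comparison was left out, and those of FURIN, LAMB1 and MRC2 did not. Of 9 tested fibroblast markers, FBLN1 (−0.53, 0.0055) and ACTA2 (−0.57, 0.015) were lower as well and none was higher. Of 8 HEK293T identity genes, KRT8 alone was lower and none was higher. The labels name only HEK293T cells, and any part of other cells in the collagen values was not tested.

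With JQ1, single genes of these lists passed the threshold in both directions, 2 or fewer per list apart from the regulators. Of all tested genes, 7.16% were higher with JQ1 and 10.4% lower, the shares against which each list is read. Taken over all these lists together, the calls did not exceed these shares on either side. They therefore describe single genes, and no list was tested as a set. Of 19 folding genes, P3H1, a prolyl 3-hydroxylase of type I collagen, rose by 0.54 (adjusted p = 0.00053), and COLGALT2, a collagen galactosyltransferase, fell by 0.48 (adjusted p = 0.049). Of 9 degradation genes, CTSK, the collagen-degrading cathepsin K, rose by 2.25 (adjusted p = 0.0031), and RECK, an inhibitor of matrix metalloproteinases, by 0.41 (adjusted p = 0.037). The JQ1 libraries of CTSK ranged from 1.398 to 6.89 CPM. Its value without JQ1 replicate 1 was 1.39 (adjusted p = 0.0048). Of 8 collagen receptors, ITGA2 (−0.89, 0.014) and DDR1 (−0.53, 0.042) fell. Of 16 regulators, the TGF-beta receptor TGFBR2 (−1.54, 0.00023), its mediator SMAD3 (−0.53, 0.0062) and the ligand TGFB3 (−0.75, 0.038) fell, and SOX6, a cartilage factor, rose (0.57, 0.037). Of 16 basement membrane partners the laminin chain LAMA3 rose by 0.60 (adjusted p = 0.012), of 13 secretion genes FURIN fell by 0.39 (adjusted p = 0.020), and none of 6 cross-linking genes passed the edgeR threshold. Of these 12 calls, 6 ended when some single library was left out, and those of CTSK, ITGA2, LAMA3, P3H1, SMAD3 and TGFBR2 did not. In E92K cells no gene of any of these lists passed the edgeR threshold, and 0.0% of all tested genes did on either side.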

How the data were processed

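RNA-seq counts per gene were read for 16 libraries, grouped by their titles and treatment labels. Per the labels' protocols, a company built the libraries. For the alignment, counting and strandedness, tools and settings were not given in the sources used here. Deposited values were whole-number counts and TPM, and the authors' TPM equal counts per exonic length scaled to a fixed sum. Of 44 collagen genes, 34 had the same coordinates in the files and in GENCODE 29 on GRCh38.

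Genes were kept with filterByExpr (minimum count 10, minimum total 15), TMM-scaled, and tested by quasi-likelihood F (edgeR 4.0.16, R 4.3.3) in a fit of 16 libraries that leaves 12 residual degrees of freedom. Tests were two-sided, with Benjamini-Hochberg adjustment over 17306 genes and a threshold of 0.05. CPM use the TMM-scaled library sizes. The standard error is the fold change over the square root of F. Replicates of a group never agreed within sampling noise (smallest chi-square per degree of freedom 3.77). The fit was also tested on simulated data with known changes, for JQ1 and for pinometostat.

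All collagen genes that passed the filter could be named, others by name where they reached 10 reads, and per related list up to 4 genes with the smallest adjusted p. The members, classes and related lists were chosen with earlier results of these data known. Of 119 related genes listed, 118 matched. Alternatives were DESeq2 1.42.0, limma-voom (limma 3.58.1), other scalings and filters, log2(TPM + 1) and log2(TPM + 0.1), a replicate block, and libraries left out. GC trend, length trend and quality weights were chosen after seeing the data. GC content came from the longest GENCODE 29 transcript.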

Additional observations from a re-analysis of the deposited data

Results flagged for a closer look

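Each of 37 genes was checked in each of 4 groups for a library that stands far from the other 3 by Dixon's test. This made 148 groups, and chance flags about 1 in 20 of them, which is about as many as are listed here. COL8A2 was low in pinometostat replicate 2, at 0.34 CPM against 0.90 to 1.00 CPM. COL4A4 was high in E92K replicate 3, at 2.01 CPM against 1.404 to 1.43 CPM. COL26A1 was high in DMSO replicate 4, at 15.4 CPM against 13.6 to 13.8 CPM. COL14A1 was high in DMSO replicate 1, at 8.56 CPM against 6.61 to 6.77 CPM, and the pinometostat call of COL14A1 ended without that library (adjusted p = 0.17 in edgeR). COL5A1 was high in pinometostat replicate 2, at 24.9 CPM against 21.8 to 21.9 CPM. COL15A1 was high in JQ1 replicate 1, at 1.89 CPM against 0.37 to 0.54 CPM. COL9A3 was high in the same library, at 17.0 CPM against 9.05 to 9.58 CPM. In TPM that library had 5.90 against 5.81 to 6.08, so COL9A3 did not stand apart on that scale.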

How the results depend on the processing

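Main counts of members called were 3 higher and 0 lower with JQ1, 0 and 9 with pinometostat, 0 and 0 in E92K cells, 16 and 0 for JQ1 against pinometostat, 11 and 0 for JQ1 against E92K, and 0 and 0 for pinometostat against E92K. Each count under another setting is followed by the share of all tested genes past the threshold on that side. With JQ1 against DMSO, the higher count was 0 on log2(TPM + 1) (1.18%), 1 on log2(TPM + 0.1) (1.1%) and 7 with quality weights (16.9%). The lower count there was 1 with library size alone (15.1%), on either TPM scale (12.9 and 12.4%), after removal of the GC trend (10.3%), with quality weights (16.4%) and without JQ1 replicate 1 and E92K replicate 4 (14.4%). With pinometostat against DMSO, the higher count was 2 with DESeq2 (5.69%), with no filter (1.36%), with only the 8 libraries compared (12.5%) and without those 2 libraries (10.5%), 1 with the GC trend removed (1.61%) and 5 with quality weights (16.8%). The lower count was 14 with DESeq2 (9.70%) and with a filter of 50 counts in 4 libraries (7.91%), 17 with the 8 libraries alone (15.1%), without those 2 libraries (17.9%) and with quality weights (15.3%), 3 on log2(TPM + 1) (2.66%) and 1 on log2(TPM + 0.1) (0.0925%). For E92K against H2A, quality weights gave 1 higher (2.75%) and 6 lower (3.59%). For JQ1 against pinometostat, the higher count was 9 on either TPM scale (5.74 and 5.14%), and the lower count was 2 without those 2 libraries (21.8%) and with quality weights (27.8%) and 1 with the GC trend removed (13.7%). For JQ1 against E92K, the higher count was 4 with library size alone (4.10%), 7 with the 8 libraries alone (5.81%), 1 on either TPM scale (1.72 and 1.57%) and 18 with quality weights (23.4%). The lower count there was 1 with library size alone (16.5%), on either TPM scale (11.1 and 11.0%) and after removal of the GC trend (10.7%), and 2 without those 2 libraries (16.4%) and with quality weights (21.7%). For pinometostat against E92K, the higher count was 1 with no filter (0.41%) and without those 2 libraries (3.28%) and 2 with quality weights (9.62%). The lower count there was 3 with DESeq2 (3.73%), 1 with DESeq2 size factors (0.566%), the 8 libraries alone (1.4%) and the length trend removed (1.16%), 8 without those 2 libraries (6.86%) and 9 with quality weights (8.64%). The cause of these differences was not tested.

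The replicate numbers shared across groups are not stated to pair samples. Same-numbered deviations correlated between −0.208 and 0.147 for DMSO and pinometostat, and between −0.557 and 0.238 for E92K and JQ1. E92K replicate 4 and JQ1 replicate 1, the libraries with high mitochondrial shares, correlated at 0.713. So few values cannot decide whether same-numbered samples were handled together. A replicate block gave 1 higher (1.29%) and 7 lower (1.79%) with pinometostat, 3 higher (4.84%) and 0 lower (8.81%) with JQ1, 18 higher (14.6%) for JQ1 against pinometostat and 11 (8.39%) for JQ1 against E92K. Leaving out 1 library at a time gave 1 to 6 higher (4.23 to 8.45%) and 0 to 1 lower (8.45 to 12.0%) with JQ1, and 0 to 1 higher (0.480 to 4.11%) and 6 to 13 lower (1.18 to 5.06%) with pinometostat. It gave 15 to 19 higher (13.8 to 19.3%) and 0 to 1 lower (14.5 to 20.3%) for JQ1 against pinometostat, 9 to 13 higher (7.51 to 15%) and 0 to 2 lower (9.77 to 17.3%) for JQ1 against E92K, and 0 for the other comparisons, where at most 0.0462% of all genes passed on either side. The JQ1 count was 1 without JQ1 replicate 1 and 6 without JQ1 replicate 4. For single genes, collagen or related, 4141 comparisons of settings gave no reversed call, 292 calls lost and 126 gained. Among all genes called with JQ1, 40.7% were higher in the main scaling, 14.2% with library size alone and 8.38% on log2(TPM + 1). With pinometostat the share was 44.1%, 32.6% with library size alone, 57.2% with upper quartile scaling and 14.3% on log2(TPM + 1). Members under 1 TPM rest on few reads, so small differences there were not detectable at this depth.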

Other observations

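COL6A4P1, a pseudogene of a collagen VI chain that is not among the 44 genes, fell with JQ1 by 1.71 ± 0.33 on the log2 scale (edgeR quasi-likelihood test with Benjamini-Hochberg adjustment, adjusted p = 0.0013). Its level was 1.18 ± 0.15 CPM with DMSO (SD, n = 4), 0.35 ± 0.19 CPM with JQ1, 1.06 ± 0.29 CPM in E92K cells and 1.29 ± 0.19 CPM with pinometostat. It ranged from 3 to 39 reads in a library. No collagen gene that passed the filter fell past the threshold with JQ1 in that fit. Reads of near-identical copies may be split between genes, which was not tested here. The antisense genes COL5A1-AS1, COL4A2-AS1, COL4A2-AS2, COL18A1-AS1 and COL18A1-AS2 had at most 2 reads in any library.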
